A study of Mus musculus with 6 samples.

Results

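The genes of the mouse major histocompatibility complex, called H2, and of the machinery that loads its molecules with peptide were followed in whole skin of mice that overexpress Hoxc13. Members were the probe sets whose gene field held a symbol beginning with H2-, or one of B2m, Tap1, Tap2, Tapbp, Psmb8, Psmb9, Psmb10, Psme1, Psme2, Cd74 and Ciita. There were 65 of them among the 12488 probe sets of the array, each a set of short probes against some transcript or transcripts. The members list 52 of the 8949 gene symbols on the array, and 53 of the 65 probe sets were bright enough to be tested. They comprised 10 probe sets of class I (the H2-K and H2-D chains and their light chain B2m), 21 of non-classical class I, 4 that listed both kinds together, 15 of class II, 13 of antigen processing and 2 of H2-Ke6. The study measured total RNA of total skin at 5 days after birth on 6 arrays, of which 3 came from GC13 mice, the Hoxc13-overexpressing transgenic line, and 3 from FVB mice, an albino inbred strain. The labels name neither the promoter that drives the transgene nor the strain on which the GC13 line is kept. Whether each sample is another mouse is not stated either, so part of the spread behind the p-values may be technical. Hoxc13, a homeodomain factor of the hair follicle, had no probe set under its name in the annotation, so its own level was not analysed here.

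Class I molecules sit on nearly all nucleated cells and show peptides made in the cell to CD8 T cells, while class II molecules sit on dendritic cells, macrophages and B cells and show peptides taken up from outside to CD4 T cells. Peptides for class I are cut by the proteasome, moved into the endoplasmic reticulum by the Tap1 and Tap2 transporter and fitted to a heavy chain bound to B2m. In skin, class II is borne mainly by Langerhans cells and dermal dendritic cells, and the lower part of the growing hair follicle is known for low class I. H2 genes belong to families of near-identical members and differ between inbred strains in sequence and in number. Probe sets with the suffix _f_at hold probes shared within such a family, so their signal can come from several genes.

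Promoter windows show how alike the members are in their control regions, and those of the genes described most below are printed. They run from 250 bases before to 50 bases after the annotated start and are written on the strand of the gene. They come from RefSeq on build GRCm38.p6 of C57BL/6J, a strain other than FVB. Whether the GC13 line is kept on it is not known from the labels. Of the 52 gene symbols that members listed, 35 had a window. Capitals mark matches, on either strand, to CCAAT, to CTGATTGG, which contains CCAAT on its other strand, to GGGATTCCC, a form of the NF-kappaB site, to TGACGTCA, the cyclic AMP response element, and to AANNGAAA, the core that interferon regulatory factors bind. The windows lie at chr17:34000298-34000597 (minus strand), chr17:35262844-35263143 (plus), chr17:35379367-35379666 (plus), chr2:122147437-122147736 (plus), chr17:34287774-34288073 (minus), chr17:34305617-34305916 (plus) and chr17:34187306-34187605 (plus).
H2-K1: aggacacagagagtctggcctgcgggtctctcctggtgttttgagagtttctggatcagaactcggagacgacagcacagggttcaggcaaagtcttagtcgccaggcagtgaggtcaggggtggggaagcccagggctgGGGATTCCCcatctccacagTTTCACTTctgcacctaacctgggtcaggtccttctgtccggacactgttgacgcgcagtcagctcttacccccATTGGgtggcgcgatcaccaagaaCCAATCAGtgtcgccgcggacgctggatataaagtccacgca
H2-D1: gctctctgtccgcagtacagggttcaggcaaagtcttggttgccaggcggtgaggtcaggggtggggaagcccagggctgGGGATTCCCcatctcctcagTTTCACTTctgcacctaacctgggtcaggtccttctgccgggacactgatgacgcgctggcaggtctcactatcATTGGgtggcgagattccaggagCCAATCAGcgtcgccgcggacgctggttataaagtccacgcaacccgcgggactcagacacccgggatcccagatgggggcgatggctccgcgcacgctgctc
H2-Q4: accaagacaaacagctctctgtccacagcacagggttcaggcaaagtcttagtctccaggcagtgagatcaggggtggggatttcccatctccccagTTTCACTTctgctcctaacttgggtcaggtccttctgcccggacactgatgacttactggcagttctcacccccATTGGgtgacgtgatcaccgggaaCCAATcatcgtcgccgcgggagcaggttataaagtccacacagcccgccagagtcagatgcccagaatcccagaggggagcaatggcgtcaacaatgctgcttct
B2m: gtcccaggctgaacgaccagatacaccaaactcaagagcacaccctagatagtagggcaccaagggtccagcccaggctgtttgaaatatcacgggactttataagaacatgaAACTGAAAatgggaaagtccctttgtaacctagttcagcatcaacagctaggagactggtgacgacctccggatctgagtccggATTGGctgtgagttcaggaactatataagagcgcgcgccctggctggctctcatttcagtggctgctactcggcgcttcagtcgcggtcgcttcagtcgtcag
H2-Aa: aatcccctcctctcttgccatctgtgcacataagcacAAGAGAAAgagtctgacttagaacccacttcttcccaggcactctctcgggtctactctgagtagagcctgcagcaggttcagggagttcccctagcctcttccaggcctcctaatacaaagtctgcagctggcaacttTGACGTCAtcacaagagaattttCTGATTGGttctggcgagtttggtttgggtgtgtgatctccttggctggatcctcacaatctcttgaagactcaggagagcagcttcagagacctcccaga
H2-Eb1: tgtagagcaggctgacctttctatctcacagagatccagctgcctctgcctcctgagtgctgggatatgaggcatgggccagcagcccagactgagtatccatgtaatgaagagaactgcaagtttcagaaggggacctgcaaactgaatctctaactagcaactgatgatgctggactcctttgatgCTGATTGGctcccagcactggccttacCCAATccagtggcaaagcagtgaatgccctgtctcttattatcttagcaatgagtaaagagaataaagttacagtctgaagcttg
Tap1: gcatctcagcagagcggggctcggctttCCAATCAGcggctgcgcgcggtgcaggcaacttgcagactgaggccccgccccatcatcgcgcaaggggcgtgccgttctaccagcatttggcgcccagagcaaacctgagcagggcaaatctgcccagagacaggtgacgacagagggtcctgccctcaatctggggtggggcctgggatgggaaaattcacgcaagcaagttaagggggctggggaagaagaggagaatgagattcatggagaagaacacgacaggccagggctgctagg
H2-K1 and H2-D1, the classical class I chains, and H2-Q7 were the 3 of 35 member genes whose window held GGGATTCCC, which 0.353% of all 32851 windows hold. AANNGAAA stood in 21 of the 35 and in 23.9% of all, and in H2-K1, H2-D1 and H2-Q4 it is the same run, TTTCACTT on the printed strand. CTGATTGG, the Y box of class II promoters, stood in 14 of 35 member windows, H2-Aa, H2-Eb1, H2-K1, H2-D1 and Tap1 among them, and in 4.1% of all. CCAAT stood in 27 of 35 and in 37.4% of all, and TGACGTCA in 1 of 35, H2-Aa, and in 1.79% of all. The windows of Tap1 and Psmb9, which lie head to head on opposite strands, share 275 bases, so the Tap1 sequence shows most of both. A match describes letters and not a site in use.

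The arrays differed in ways that touch the results below. Summed over all probe sets, the deposited linear intensities came to between 1640876 and 1736141 on the GC13 arrays and between 1626361 and 1644444 on the FVB arrays. For Gapdh, the signal of the 3' control probe set divided by that of the 5' one, a gauge of transcript-end balance, was 2.22, 9.58 and 2.19 on GC13 replicates 1, 2 and 3, and 0.931, 0.958 and 0.894 on the FVB arrays (exact two-sided permutation test on log2 ratios, p = 0.1, the smallest possible with 3 against 3). Eif2s3y, a gene of the Y chromosome, stood at 3.25, 143 and 4.60 on the GC13 arrays and between 69.4 and 98.9 on the FVB arrays. GC13 replicate 2 thus stands apart from its group in both measures, and calls without it are given beside the main ones. The part of transcript-end balance and of sex in the results was not tested. In whole skin, fewer cells of a type and less RNA per cell cannot be told apart.

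Signal fell in GC13 skin in a pair of family probe sets, of H2-D4 and of H2-K2 and H2-Q2. No other tested member passed the threshold. The GC13 means of the pair, 5.32 and 2.82, were under the brightness needed for testing. Both were tested only because of their FVB signal, and the calls among members rest on them alone. Two-sided limma with Benjamini-Hochberg adjustment over 9316 probe sets and a threshold of 0.05 called 2 of the 53 tested members, both lower in GC13, where 0.419% of all tested probe sets were called lower. None of the 53 was called higher by limma, where 0.0859% of all were, and 0.505% of all were called in either direction. At an unadjusted p under 0.05 limma gave 12 lower members and 4 higher ones, against 6.96% lower and 8.52% higher over all. Fold changes are GC13 minus FVB on the log2(intensity + 2) scale after centring each array on its median, which understates the change of dim probe sets. The median over the 53 was -0.21 and over all tested probe sets 0.08. On the deposited intensities, 19 of 53 members had every GC13 array below every FVB array, where 12.3% of all tested probe sets did, and 0 had every GC13 array above, where 10.7% did. After centring, these counts were 12 lower (9.94% of all) and 3 higher (14.5% of all), so the count moves with the scale. Without GC13 replicate 2 they were 22 lower (26.6% of all) and 8 higher (28.7% of all) on the deposited intensities. The 19 include the called pair and H2-Q5, all tested only because of their FVB signal. The 19 of 53, or 35.8%, was exceeded in some of the gene lists described below and not in others. The share was 42.9% for regulators of antigen presentation (6 of 14) and 38.5% for class II antigen processing (5 of 13). Counts were 3 of 10 for class I loading, 10 of 39 for other H2 region genes and 4 of 20 for constitutive proteasome genes. They were 1 of 20 for antigen-presenting cell markers, 1 of 8 for lymphocyte markers and 0 of 4 for MHC-like genes outside the complex. For single genes below, whether groups overlap is read on the deposited intensities unless centring is named, while fold changes are of centred values.

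**Figure D1:**
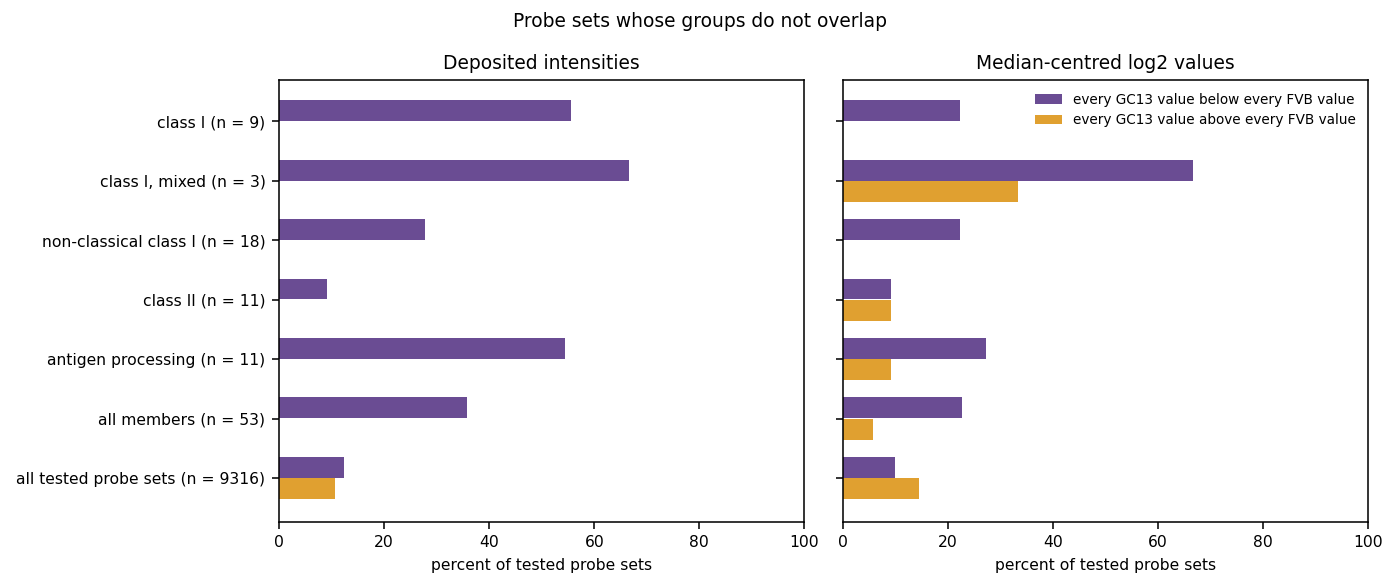
Horizontal bars give the percent of tested probe sets whose GC13 values all lie below (purple) or all above (yellow) the FVB values, by class, with n in brackets, on the deposited intensities (left) and the centred log2 values (right). On the left 55.6% of class I, 27.8% of non-classical class I, 9.09% of class II and 54.5% of antigen processing probe sets had every GC13 array lower, against 12.3% of all tested probe sets. On the right these shares are 22.2%, 22.2%, 9.09% and 27.3%, against 9.94%.

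The pair that passed were the probe sets of H2-D4 and of H2-K2 and H2-Q2. H2-D4, a gene of the H2-D region, had intensities of 5.43, 1.78 and 8.74 on the GC13 arrays, against 60.2, 67.5 and 78.8 on the FVB arrays, in probe set 101653_f_at. All GC13 arrays were dim there and none came near an FVB array. It fell by 3.32 on the log2(intensity + 2) scale (SE 0.31, limma adjusted p = 0.00927). The other H2-D4 probe set, 101652_i_at, was between 0.75 and 3.10 in GC13 and between 0.935 and 2.06 in FVB and was too dim to be tested. Probe set 97173_f_at, listed under H2-K2 and H2-Q2, had 3.98, 1.05 and 3.43 in GC13, against 39.3, 33.2 and 43.9 in FVB. It fell by 3.06 on the log2 scale (SE 0.25, limma adjusted p = 0.00845). The groups were again far apart, and both probe sets share probes within the class I family, so the lower signal cannot be assigned to 1 gene. H2 sequences differ between strains and the labels do not give the strain of the GC13 line, so less RNA and RNA that matches these probes less well cannot be told apart. The GC13 means of 5.32 ± 3.48 for H2-D4 and 2.82 ± 1.56 for 97173_f_at (SD, n = 3 each) lay under the intensity of 6.86 used as the filter, so both probe sets were tested only because of their FVB signal, at 68.8 ± 9.38 and 38.8 ± 5.35 in FVB. With the background unknown, the size of these changes depends on the pseudocount. The log2 fold changes of this pair ran from -3.58 to -1.40 and from -3.40 to -0.98 over the alternatives, smallest with a pseudocount of 32. Without FVB replicate 1, 2 or 3 neither passed, with limma adjusted p-values between 0.0521 and 0.104, and without GC13 replicate 1 H2-D4 had an adjusted p of 0.0515. A further probe set of H2-K2, 93714_f_at, had 529, 607 and 661 in GC13 and 735, 562 and 798 in FVB. These ranges overlapped, with a log2 fold change of -0.14.

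The chains of classical class I gave values that depended on the probe set. H2-D1 had 467, 258 and 311 on the GC13 arrays, against 701, 739 and 776 on the FVB arrays, in 101886_f_at (log2 fold change -1.06, SE 0.24, adjusted p = 0.126 by limma). Its probe set 97540_f_at had 485, 702 and 430 in GC13 and 792, 706 and 759 in FVB, or -0.44 on the log2 scale (SE 0.29, limma adjusted p = 0.514). The first kept all GC13 arrays far below FVB, while in the second GC13 replicate 2 lay just under the lowest FVB array. After centring the groups overlapped in the second. In 97541_f_at, H2-D1 had 40.0, 77.8 and 32.7 in GC13 and 73.2, 73.7 and 67.2 in FVB, and here GC13 replicate 2 was the highest of all arrays. The 3 probe sets of H2-D1 thus shared a negative sign and none passed.

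H2-K1, the other classical heavy chain, had 3 probe sets that differed from each other in size and sign. It had 658, 896 and 748 on the GC13 arrays, against 922, 925 and 927 on the FVB arrays, in 93120_f_at (log2 fold change -0.21, SE 0.24, limma adjusted p = 0.721). In 97125_f_at it had 91.4, 146 and 92.5 in GC13 and 168, 164 and 199 in FVB (log2 fold change -0.63, SE 0.30, limma adjusted p = 0.354). On the deposited intensities every GC13 array was below every FVB array in both, though in the first the gap at replicate 2 was small. After centring the groups overlapped in both. The probe set 97700_at, without the family suffix, had 22.2, 32.1 and 53.5 in GC13 and 34.0, 20.8 and 42.2 in FVB, with groups that overlapped. Probe set 102161_f_at lists 10 genes, H2-K1, H2-D1, H2-T22 and H2-T23 among them. It had 177, 123 and 120 in GC13, against 335, 316 and 339 in FVB (log2 fold change -1.17, SE 0.23, limma adjusted p = 0.082). Its GC13 arrays lay well under FVB without passing. A dim mixed probe set went the other way, 97174_r_at, which lists H2-Q9, H2-Q7, H2-Q10 and H2-K1. It had 12.0, 5.53 and 18.3 in GC13 and 3.98, 3.44 and 5.87 in FVB (log2 fold change 1.10, SE 0.31, limma adjusted p = 0.171). Here GC13 replicate 2 overlapped with FVB, though not after centring. The last mixed probe set, 95773_at, was between 1.01 and 10.5 on all arrays and was not tested.

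B2m, the light chain that every class I heavy chain needs to reach the surface, had 407, 1214 and 643 on the GC13 arrays, against 1158, 1118 and 1127 on the FVB arrays. Replicates 1 and 3 were lower than FVB, and replicate 2, where the Gapdh ratio was 9.58, was the highest of the 6. By limma the log2 fold change was -0.66 (SE 0.42, adjusted p = 0.497), and it was -1.17 once GC13 replicate 2 was left out (SE 0.20, limma adjusted p = 0.0197). Mean intensities were 755 ± 415 in GC13 and 1134 ± 20.7 in FVB (SD, n = 3 each). The 9 tested class I probe sets had a median log2 fold change of -0.51, with 8 below 0. In 5 of them every GC13 array was lower on the deposited intensities and in 2 after centring, against 12.3% and 9.94% of all. Relative to the FVB mean, the median of these probe sets was -0.63, 0.17 and -0.90 on GC13 replicates 1, 2 and 3. Among the GC13 arrays replicate 2 was the highest in B2m, in 2 of the 3 H2-K1 probe sets and in H2-D1 97540_f_at and 97541_f_at, and the lowest in H2-D4 and in H2-D1 101886_f_at.

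**Figure D2:**
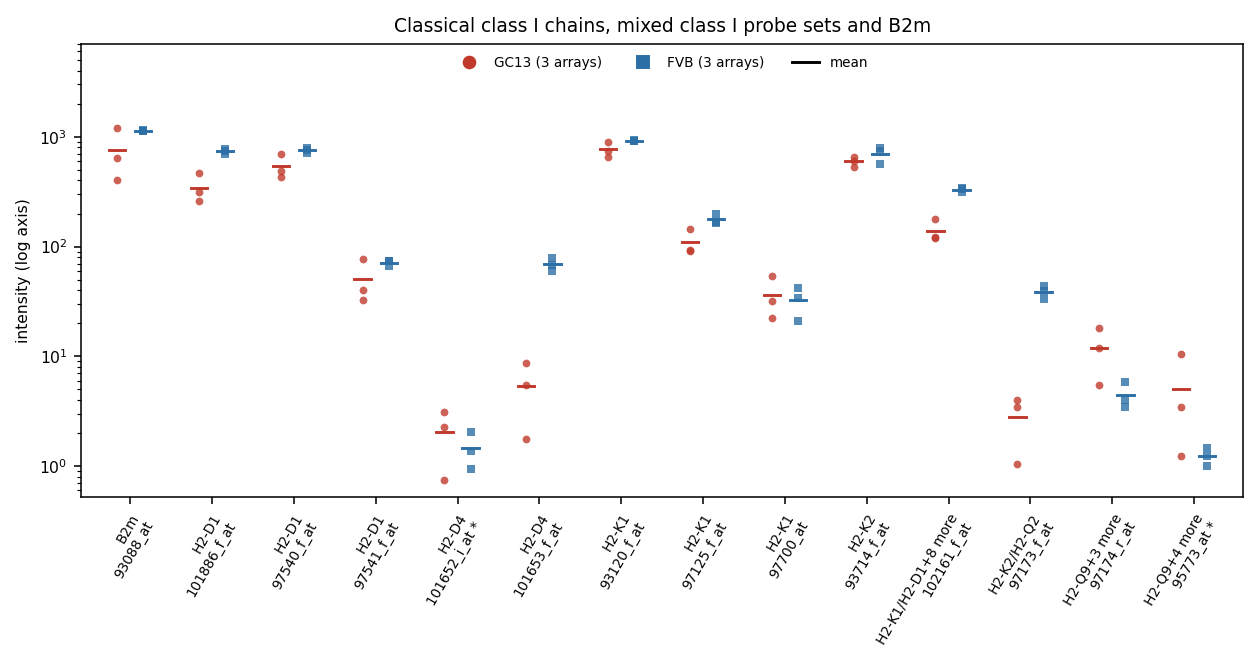
Points give the deposited intensity of each array on a log axis, for GC13 (red circles) and FVB (blue squares), with bars at the mean of 3 arrays. Each column is a class I, B2m or mixed probe set, and a star marks those too dim to be tested. In H2-D4 101653_f_at and H2-K2/H2-Q2 97173_f_at the GC13 arrays lie at 8.74 or less and the FVB arrays at 33.2 or more, and B2m shows GC13 replicate 2 at 1214 beside 407 and 643.

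Non-classical class I genes, of lower variability and more restricted use, were mixed. Of 18 tested probe sets none passed, 13 were below 0 and 5 above, and the median log2 fold change was -0.14. H2-Q4 had 72.0, 29.9 and 44.8 on the GC13 arrays, against 142, 164 and 183 on the FVB arrays. The groups were far apart, but by limma it missed the threshold, at -1.70 on the log2 scale (SE 0.29, adjusted p = 0.0569). It passed under 7 of 16 alternatives, with adjusted p-values from 0.00195 to 0.29 over them. H2-Bl, first described in the blastocyst, had 119, 78.7 and 129 in GC13, against 178, 200 and 241 in FVB (log2 fold change -0.86, SE 0.22, limma adjusted p = 0.139). H2-Q5 had 5.16, 2.50 and 3.66 in GC13 and 19.8, 23.0 and 6.64 in FVB (log2 fold change -1.49, SE 0.41, limma adjusted p = 0.158). Both had every GC13 array lower, H2-Q5 by little at FVB replicate 3.

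The probe set of H2-Q9, H2-Q7 and H2-Q5, of which H2-Q7 and H2-Q9 encode the Qa-2 antigen, had 418, 689 and 592 on the GC13 arrays, against 874, 840 and 899 on the FVB arrays. The groups did not overlap on the deposited intensities but did after centring, at a log2 fold change of -0.58. H2-T22 and H2-T10, whose products are ligands of gamma delta T cell receptors, share 2 probe sets with H2-T9. The first had 27.1, 32 and 29.8 in GC13 and 56.8, 50.9 and 46.9 in FVB, and the second 39.3, 33.3 and 35.1 in GC13 and 37.4, 46.6 and 36.9 in FVB. Under the same names the first was lower on every GC13 array (log2 fold change -0.68) and the second overlapped (-0.08). H2-T23, which encodes Qa-1, the ligand of the CD94 and NKG2A receptor, was listed with H2-T-ps and had 108, 119 and 72.5 in GC13 and 120, 115 and 109 in FVB.

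H2-T3 and H2-T18, which encode the thymus leukemia antigen, had a shared probe set with 14.3, 7.49 and 16.9 in GC13 and 4.94, 2.63 and 9.68 in FVB. It was higher by 1.06 on the log2 scale without passing, and GC13 replicate 2 overlapped with FVB. Their other shared probe set, 96976_f_at, had a log2 fold change of -0.26, and that of H2-T18 alone -0.06. The remaining tested members were H2-M2, H2-M3, which presents formylated peptides, H2-M9, H2-M10.1, known from the vomeronasal organ, with 3 probe sets, H2-Q1 and H2-Q10, known as a soluble product of the liver. All of these overlapped between the groups, with log2 fold changes from -0.68 to 0.36. H2-M1, H2-T24 and a second probe set of H2-M3 were not tested and stayed between 0.83 and 9.29 on all arrays.

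**Figure D3:**
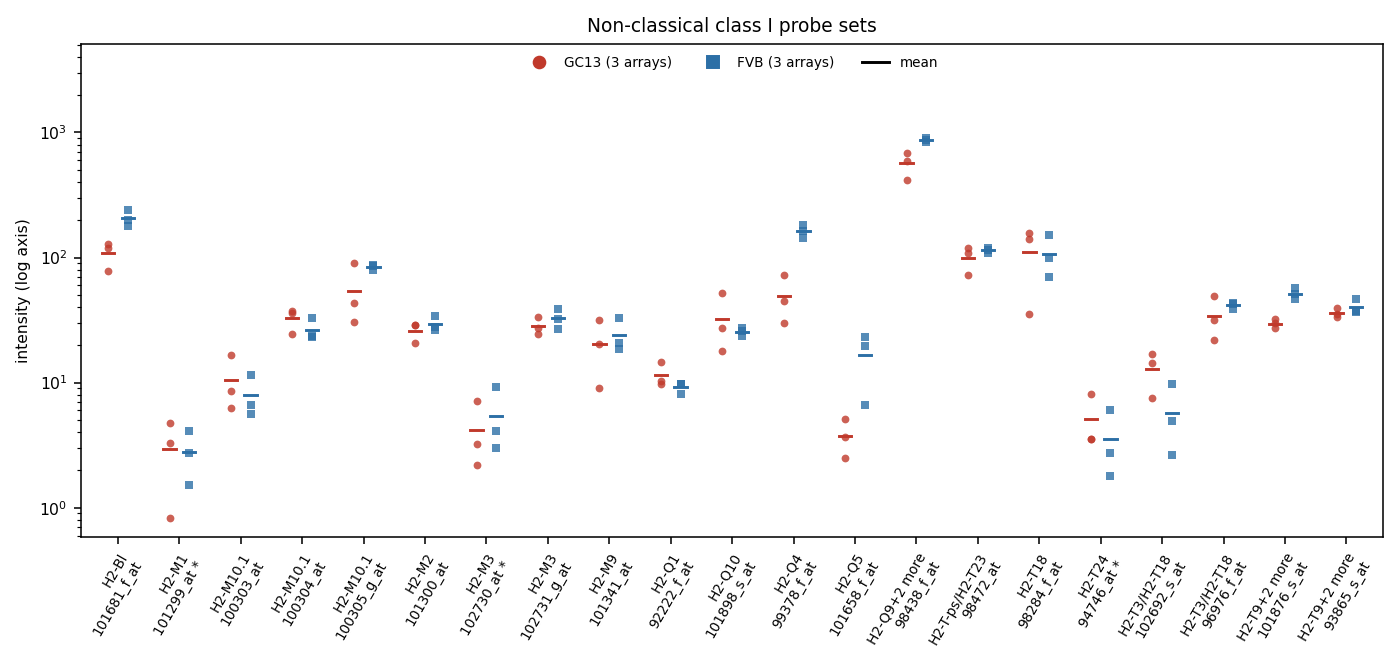
Points give the deposited intensity of each array on a log axis for the 21 non-classical class I probe sets, for GC13 (red circles) and FVB (blue squares), with bars at the mean of 3 arrays and a star for those not tested. H2-Q4 lies between 29.9 and 72.0 in GC13 and between 142 and 183 in FVB, while most columns overlap.

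The family suffix went with the class I differences. Of the 16 tested class I, mixed and non-classical probe sets with the suffix _f_at, 11 had every GC13 array below every FVB array, or 68.8%, and 7 of 16 after centring. Of the 14 without it, 1 did on both scales, or 7.14%. Over all 789 tested probe sets with the suffix, 7.35% were lower in that sense, and 4.94% after centring. Median log2 fold changes were -0.60 for the 16 with the suffix, -0.09 for the 14 without it and 0.15 for all 789. The 16 share probes and genes and are not separate measurements of class I. The 11 include the called pair and H2-Q5, tested only because of their FVB signal. Probe sets with and without the suffix also stand largely for different genes. Those tested for H2-D1, H2-D4, H2-Q4, H2-Q5 and H2-Bl carry it, while those of B2m, H2-Q10 and the H2-M genes do not. Suffix and gene cannot be told apart in these shares.

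Class II genes went both ways. None of the 11 tested probe sets passed, 6 were below 0 and 5 above, with log2 fold changes from -0.70 to 0.83 and a median of -0.03. H2-Aa, the alpha chain of the I-A molecule, had 256, 316 and 332 on the GC13 arrays and 282, 296 and 289 on the FVB arrays (log2 fold change 0.12, SE 0.21, limma adjusted p = 0.817). H2-Ab1, the beta chain of the same molecule, had 75.6, 66.4 and 76.8 in GC13, against 132, 127 and 113 in FVB. All 3 GC13 arrays were close to each other and under every FVB array, at -0.68 on the log2 scale (SE 0.20, limma adjusted p = 0.179). With GC13 replicate 2 left out, H2-Ab1 was at -0.71 (SE 0.16, limma adjusted p = 0.0361). The partner chains thus gave unlike values, 1 overlapping between the groups and 1 not, and the difference between them was not tested.

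H2-Eb1, the beta chain of the I-E molecule, had 35.3, 26.6 and 51.9 on the GC13 arrays and 19.4, 24.9 and 29.5 on the FVB arrays. It was higher in mean with overlapping arrays (log2 fold change 0.63, SE 0.24, limma adjusted p = 0.281). After centring the arrays no longer overlapped. H2-Ea, the alpha chain of I-E, was dim, between 2.44 and 8.86 in GC13 and between 4.26 and 8.25 in FVB, and H2-Eb2 lay between 0.655 and 2.38 on all arrays. Neither was tested.

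Cd74, the invariant chain that guides class II through the cell, had 532, 424 and 520 on the GC13 arrays and 552, 512 and 520 on the FVB arrays. It was level between the groups (log2 fold change -0.03, SE 0.19, limma adjusted p = 0.95). Ciita, the coactivator on which class II transcription depends, had 19.9, 10.7 and 28.6 in GC13 and 17.0, 25.2 and 19.8 in FVB, again overlapping (log2 fold change -0.06, SE 0.28, limma adjusted p = 0.94). Among the peptide exchange genes, H2-DMa had 130, 54.7 and 117 in GC13 and 112, 96.9 and 126 in FVB, and H2-DMb1 had 39.2, 16.7 and 15.9 in GC13 and 36.3, 36.0 and 44.8 in FVB. The H2-DMa ranges overlapped, while for H2-DMb1 GC13 replicates 2 and 3 lay under FVB and replicate 1 within it (log2 fold change -0.70, SE 0.34). H2-DMb2 was dim in 101868_i_at, with 4.13, 1.72 and 3.37 in GC13 and 11.8, 8.12 and 10.5 in FVB, and was not tested, though every GC13 array was lower. A second H2-DMa probe set, 162346_f_at, overlapped at a log2 fold change of 0.51, and 98034_at, which lists both H2-DMb genes, stayed at 9.51 or less and was not tested. H2-Oa and H2-Ob, whose product inhibits H2-DM, had log2 fold changes of -0.32 and 0.36, and H2-Pa had 0.83, all with intensities of 17.0 or less and overlapping groups.

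Markers of the cells that carry class II were mostly above 0. Of 20 tested probe sets of antigen-presenting cell markers none passed, 15 were above 0 and 5 below, and their median log2 fold change was 0.37. Their intensities summed to between 903 and 932 on the GC13 arrays and to between 775 and 840 on the FVB arrays. Adgre1, a macrophage surface receptor, had 22.5, 25.8 and 21.7 in GC13 and 13.6, 8.83 and 20.7 in FVB (limma adjusted p = 0.298), and Cd83, a marker of mature dendritic cells, had 8.20, 2.22 and 4.68 in GC13 and 11.8, 10.4 and 12.7 in FVB in 1 of its probe sets (limma adjusted p = 0.189), while its other, brighter one overlapped (log2 fold change 0.06). No marker was listed at 0, and 12 of the 32 marker probe sets were too dim to be tested. Of T cell, NK cell and B cell markers, 8 of 24 probe sets were tested and none passed, with a median of 0.34 and sums between 368 and 506 in GC13 and between 343 and 400 in FVB. The part of cell numbers in the class I and class II values was not tested.

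Antigen processing genes had several probe sets, of the immunoproteasome and of tapasin among them, in which every GC13 array was lower. Of 11 tested probe sets none passed, 7 were below 0 and 4 above, and the median log2 fold change was -0.31. In 6 of the 11 every GC13 array was lower on the deposited intensities and in 3 after centring, against 12.3% and 9.94% of all. Psmb8, a catalytic subunit of the immunoproteasome, had 44.6, 42.0 and 35.8 on the GC13 arrays, against 69.1, 70.0 and 76.0 on the FVB arrays. The groups were well apart, at -0.71 on the log2 scale (SE 0.22, limma adjusted p = 0.198). Psmb9, its partner subunit, had 4.89, 17.7 and 5.12 in GC13, against 30.4, 22.4 and 32.6 in FVB (log2 fold change -1.53, SE 0.48, limma adjusted p = 0.2). All GC13 arrays were lower, replicate 2 the least so, and with that array left out Psmb9 fell by 2.13 on the log2 scale (SE 0.20, limma adjusted p = 0.00528). Psmb10, the last of these subunits, had 80.5, 38.8 and 75.9 in GC13 and 64.4, 58.9 and 73.7 in FVB and overlapped. Differences between the subunits were not tested.

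Tap1, a transporter chain, had 51.7, 56.2 and 57.1 on the GC13 arrays, against 72.6, 67.3 and 82.3 on the FVB arrays (log2 fold change -0.34, SE 0.21, limma adjusted p = 0.475). Its second, dim probe set 162278_r_at ran the other way, with 17.3, 4.49 and 21.1 in GC13 and 3.15, 4.92 and 5.73 in FVB (log2 fold change 1.21, SE 0.40, limma adjusted p = 0.221). There GC13 replicate 2 overlapped with FVB, though not after centring. The probe sets of Tap1 disagree in sign, and no direction is given for the gene. Tap1 and Psmb9, whose promoter windows share the bases given above, had log2 fold changes of -0.34 in the brighter Tap1 probe set and -1.53 in Psmb9, a difference that was not tested. Tap2, the other transporter chain, had 29.6, 18.1 and 22.9 in GC13 and 21.9, 22.4 and 19.9 in FVB and overlapped.

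Tapbp encodes tapasin, which bridges class I to the transporter. It had 160, 241 and 141 on the GC13 arrays, against 315, 312 and 276 on the FVB arrays, in 100154_at (log2 fold change -0.69, SE 0.30, limma adjusted p = 0.331). In 102689_at it had 29.2, 3.91 and 26.5 in GC13 and 40.4, 53.2 and 59.5 in FVB (log2 fold change -1.52, SE 0.53, limma adjusted p = 0.239). Both were lower on every GC13 array on the deposited intensities, while the third, 162104_f_at, overlapped at 0.15. After centring 100154_at overlapped too. Psme1 and Psme2 encode the subunits of the PA28 activator, which opens the proteasome. Psme1 had 350, 239 and 278 in GC13 and 264, 243 and 272 in FVB, and Psme2, in a probe set that also lists Psme2b, had 190, 169 and 141 in GC13 and 229, 220 and 203 in FVB. Psme1 overlapped at a log2 fold change of 0.21, and Psme2 lay lower on every GC13 array at -0.31 but overlapped after centring. Dim second probe sets of both stayed at 9.85 or less and were not tested. That of Psme2, 161938_r_at, ran the other way, with 8.88, 3.24 and 8.93 in GC13 and 3.17, 2.44 and 1.76 in FVB. There every GC13 array was higher. H2-Ke6, a steroid dehydrogenase gene that carries an H2 symbol through its place in the complex, had 55.7, 39.7 and 44.1 in GC13 and 61.7, 55.0 and 61.9 in FVB in 1 probe set (log2 fold change -0.28), and its other probe set was not tested.

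**Figure D4:**
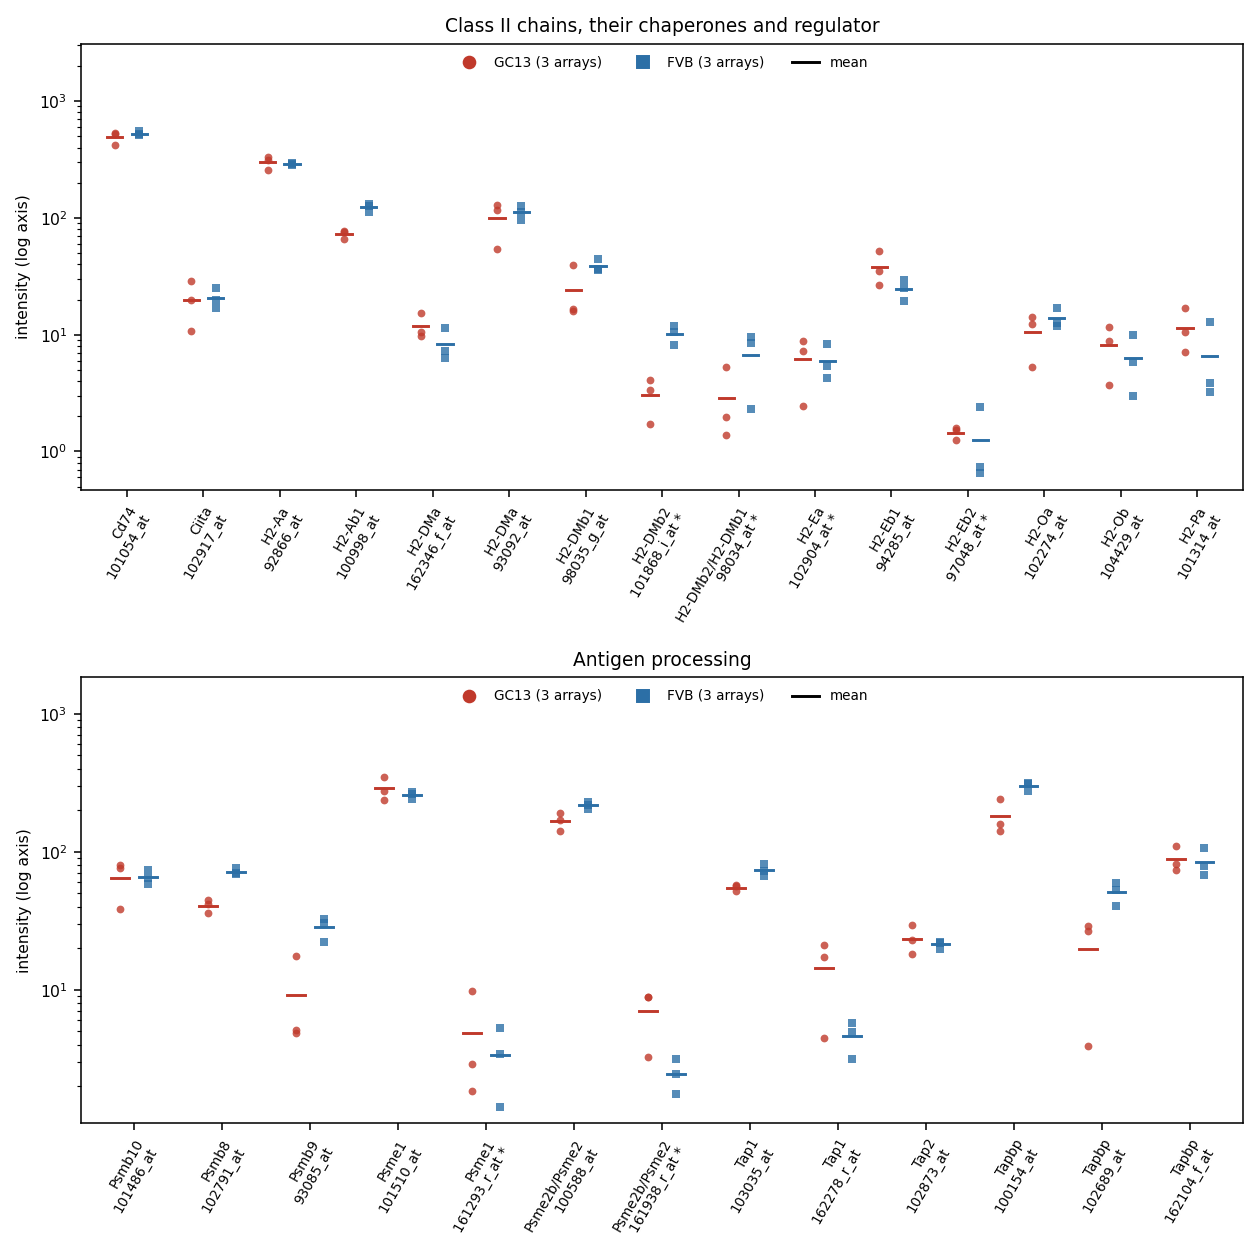
Points give the deposited intensity of each array on a log axis, for GC13 (red circles) and FVB (blue squares), with bars at the mean of 3 arrays and a star for probe sets not tested, for class II (top) and antigen processing (bottom). H2-Ab1, Psmb8, Psmb9 and 2 of the 3 Tapbp probe sets show every GC13 array below every FVB array, while Cd74 and H2-Aa overlap.

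More members passed once GC13 replicate 2 was left out, in a fit that also called more probe sets overall. In it 17 of 53 members were lower, where 8.84% of all tested probe sets were called lower, and 2 were higher, where 6.04% were. The 17 held 6 of 9 class I, 2 of 3 mixed, 4 of 18 non-classical, 1 of 11 class II and 4 of 11 antigen processing probe sets. The class II probe set was that of H2-Ab1. The 2 higher ones were Tap1 162278_r_at and the mixed 97174_r_at, both dim and tested only because of their GC13 signal. H2-K1 97125_f_at passed at -0.95 (SE 0.16, limma adjusted p = 0.0182) and Tapbp 100154_at at -1.01 (SE 0.17, limma adjusted p = 0.0188). The arrays left in that comparison had Eif2s3y of 3.25 and 4.60 in GC13 and of at least 69.4 in FVB, so the level of this Y-linked gene and the line cannot be told apart in it. Their Gapdh ratios were 2.22 and 2.19 in GC13 and between 0.894 and 0.958 in FVB. Transcript-end balance and the line cannot be told apart in it either.

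**Figure D5:**
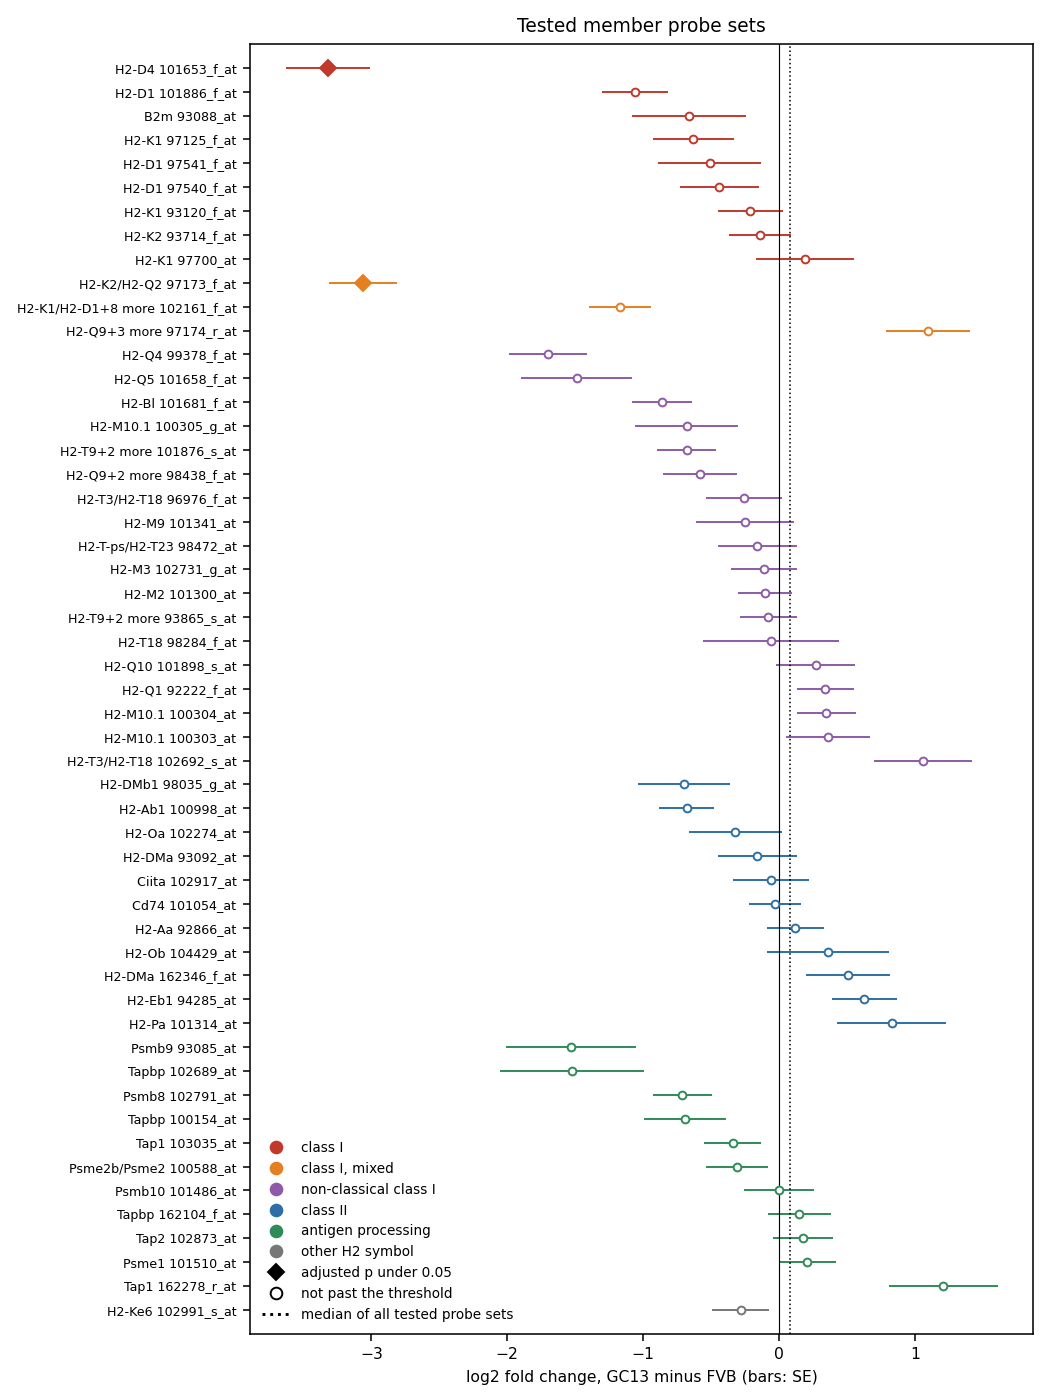
Each of the 53 tested member probe sets is drawn at its log2 fold change, GC13 minus FVB, with a bar of 1 SE on each side, grouped by class and ordered within it. Filled diamonds mark the 2 past the threshold, at -3.32 and -3.06, and the dotted line marks the median of all tested probe sets, 0.08.

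None of the other genes of the pathway passed the threshold in any of the lists below. Among regulators, 14 of 16 probe sets were tested, 9 were below 0 and 5 above, with a median log2 fold change of -0.21. Ifngr2, a chain of the interferon gamma receptor, whose signal raises class I and class II, had 27.0, 27.2 and 28.2 on the GC13 arrays, against 72.2, 60.8 and 68.1 on the FVB arrays. Its arrays were tight in both groups and far apart between them, and at -1.15 it missed the threshold (limma adjusted p = 0.0664). Jak1, a kinase of the same receptor, had 341, 274 and 304 in GC13 and 216, 217 and 187 in FVB (log2 fold change 0.63), and the feedback inhibitor Socs1 had 13.4, 9.81 and 13.4 in GC13 and 18.4, 17.4 and 25.2 in FVB (-0.57). The receptor chain and the inhibitor were lower on every GC13 array and the kinase higher, with none past the threshold.

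Genes that fold and load class I in the endoplasmic reticulum had a median of -0.13 over 10 tested probe sets, with 7 below 0 and 3 above. Genes of class II antigen processing had -0.24 over 13, with 9 below and 4 above. Within that list Ifi30, a thiol reductase of endosomes, had 274, 165 and 182 in GC13 and 118, 108 and 127 in FVB, and Lgmn, the protease legumain, had 79.5, 77.8 and 77.6 in GC13 and 142, 132 and 117 in FVB. Neither passed, the first being higher and the second lower on every GC13 array. The constitutive proteasome genes had a median of 0.01 over 20, with 9 below and 11 above, and Psmb5, whose place Psmb8 takes in the immunoproteasome, had 351, 317 and 244 in GC13 and 538, 570 and 527 in FVB in 1 probe set (log2 fold change -0.78, limma adjusted p = 0.205), while its other one overlapped (0.20). MHC-like genes outside the complex had 4 tested probe sets, of which Procr had 147, 333 and 123 in GC13 and 346, 319 and 299 in FVB, and Cd1d1, which presents lipids, had 59.2, 175 and 50.3 in GC13 and 123, 121 and 119 in FVB. In both, replicates 1 and 3 were low and replicate 2 was not, as in B2m.

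Neighbours in the H2 region that present no antigen had a median log2 fold change of 0.13 over 39 tested probe sets, with 18 below 0, 21 above and none past the threshold. Every GC13 array was lower in 10 of the 39, or 25.6%, and higher in 3, or 7.69%. After centring these counts were 9 and 6, where the members had 12 and 3 of 53. Bag6, a chaperone gene of the class III part of the complex, had 74.6, 29.7 and 92.5 in GC13, against 172, 146 and 200 in FVB, in 93922_g_at, and Tnxb, an extracellular matrix gene, had 278, 168 and 234 in GC13 and 121, 121 and 126 in FVB. Their log2 fold changes of -1.43 and 0.92 (limma adjusted p = 0.131 and 0.127) had opposite signs. A brighter probe set of Tnxb, 102916_s_at, had 445, 211 and 502 in GC13 and 249, 223 and 257 in FVB. It overlapped between the groups at a log2 fold change of 0.65. The probe sets of Bag6 disagreed among themselves, with log2 fold changes from -1.43 to 0.58, so no direction is given for it. Vars had 128, 48.0 and 102 in GC13 and 205, 194 and 210 in FVB (log2 fold change -1.15, limma adjusted p = 0.150). It was lower on every GC13 array.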

How the data were processed

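Total RNA of whole skin was measured on 6 arrays, 3 of GC13 and 3 of FVB mice, grouped by their labels. The deposited values are intensities on a linear scale for 12488 probe sets, and neither software nor background correction is named in the sources used here. Without its highest and lowest 2% of values, each array averages 100. No depth or detection limit is known, and the number of arrays limits the precision. After 66 control probe sets were left out, log2(intensity + 2) was centred on each array's median, since array medians differed by up to 0.345, and the dimmest 25% by mean intensity (6.86 or less), whatever their change, were dropped. The contrast of GC13 with FVB was fitted across 9316 probe sets (lmFit and eBayes of limma 3.58.1, R 4.3.3), with Benjamini-Hochberg adjustment and a threshold of 0.05. The fit was tested on simulated arrays that gave both groups the same spread and held no outlying array. GC13 replicate 2 stands apart here, so that test does not show how the fit does on these data.

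Gene names came from the platform annotation, updated by Entrez identifiers with the RefSeq table of GRCm38.p6, in which all identifiers of 62 of the 65 members were found. Of the members 52 list 1 gene and 13 several, which are given under those names. The members and lists were chosen with earlier results of these data known. Any member may be named. Full statistics go to those past the threshold, to the 10 of smallest p and to B2m, H2-K1, H2-D1, H2-Aa, H2-Ab1, H2-Eb1, Cd74, Tap1, Psmb8 and Ciita. From other lists the 3 probe sets of smallest p may be named. Standard errors and p-values of Psmb9, Tapbp and H2-DMb1 were added after their values were seen. Alternatives were pseudocounts of 1, 8 and 32, no filter, a filter of 50%, other scalings, an intensity trend, array weights, the replicate number as a block and leaving out each array. The correlations of deviations of same-numbered samples were -0.07, 0.18 and 0.36, so the numbers are not taken to pair the samples.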

Additional observations from a re-analysis of the deposited data

How the results depend on the processing

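Members past the threshold numbered 2 lower and 0 higher, with 5 lower at a pseudocount of 32, and with 22 lower and 8 higher under array weights, where 1795 of all probe sets were lower and 2045 higher. Leaving out 1 array gave 0 to 17 lower and 0 to 2 higher members. The highest counts came without GC13 replicate 2. There were 0 without FVB replicate 1, 2 or 3 and 1 without GC13 replicate 1. Over all probe sets, 39 were lower and 8 higher. These became 87 and 32 with a pseudocount of 32. Higher calls numbered 5 without the filter, 2 without centring and 13 with an intensity trend. Leaving out 1 array gave 0 to 824 lower and 0 to 563 higher.

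With the replicate number as a block, 65 probe sets were lower and 15 higher. The block left the member counts within 1.5 times and put H2-Q4 past the threshold (limma adjusted p = 0.0453). The samples share only a number, so this is no paired design.

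Of class medians, that of class I was -0.51 and ran from -0.95 to -0.21 without 1 array, lowest without GC13 replicate 2. That of non-classical class I was -0.14, and was -0.58 with the lowest 50% left out and -0.02 under array weights. That of class II was -0.03 and ran from -0.06 to 0.07 without 1 array. That of antigen processing was -0.31, was 0.00 without the filter, and ran from -0.42 to -0.12 without 1 array. The median of all tested probe sets was 0.01 without centring and 0.03 with quantile normalization.

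The count of members with every GC13 array lower was 19 on the deposited intensities, 12 after centring and 22 without GC13 replicate 2. The count with every GC13 array higher was 0, 3 and 8 in the same order. These alternatives were chosen after seeing the data. Signs turned in 4 genes whose groups overlap. Under array weights H2-Aa was at -0.12, H2-K1 97700_at at -0.27, Ciita at 0.02 and Cd74 at 0.01. Ciita was at 0.00 with a pseudocount of 32. Leaving out 1 array gave -0.01 to 0.26 for H2-Aa, -0.09 to 0.49 for H2-K1 97700_at, -0.27 to 0.19 for Ciita and -0.07 to 0.02 for Cd74. For the 22 probe sets with full statistics, 292 further values kept their direction and side of the threshold, 35 passed it newly and 7 lost it. The log2 Gapdh ratio difference of 1.95 ran from 1.25 to 2.31 without 1 array. The causes were not tested, and the dimmest probe sets have no known background to set their signal against.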
